A study of Mus musculus with 4 samples.

Results

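The insulin-like growth factor system was followed through 10 genes: the ligands Igf1 and Igf2, the receptors Igf1r and Igf2r, and the binding proteins Igfbp2, Igfbp3, Igfbp4, Igfbp5, Igfbp6 and Igfbp7. They were chosen by symbol from the 31053 genes counted, and every one of the 10 was present in the tables. Their levels were read in cell classes of the mouse heart, and the difference between 2 maternal diets was read library by library. The hearts came from 6-week-old offspring of dams that ate, through pregnancy and lactation, either a feed rich in resistant starch (high fibre, 2 libraries) or a comparison feed (control diet, 2 libraries), which the study's design text describes as poor in resistant starch. All offspring moved to one standard chow at weaning at 3 weeks. The labels give no strain and do not say how many animals made up a library, so a p-value here covers only how far these libraries vary, part of which can be technical. Hearts were digested by perfusion with collagenase IV at 2 mg per mL and dispase II at 1 mg per mL, and live, nucleated, metabolically active cells were sorted before droplet capture.

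Insulin-like growth factor 1 and 2 are secreted peptides that act through the Igf1r tyrosine kinase and its adaptor proteins on growth and survival. Igf2r, which is also the receptor for mannose 6-phosphate, carries Igf2 to the lysosome and does not signal as a kinase. The binding proteins hold the ligands in blood and in the matrix, lengthen or block their action, and are opened by secreted proteases, while Igfbp7 binds the ligands only weakly and lies in vessel walls and matrix. In the heart these genes are known from stromal, vascular and endocardial cells rather than from one source.

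The 4 libraries held 2966 to 9036 barcodes and 27577599 to 69600492 unique molecular identifiers (UMIs, each standing for 1 captured RNA molecule), and 2639 to 7606 cells each were kept, with a median depth of 5812 to 7729 UMIs per cell. Some barcodes occurred in more than 1 library: pairs of libraries shared 463 to 747 barcodes. Of the control-diet library 2, 802 barcodes (27.0%) were shared, and 695 of them were deeper there than in any other library, with a median of 17333 UMIs against medians of 630 to 685 for the shared barcodes of the other 3. Leaving every shared barcode out took the fibroblasts of that library from 576 to 178 and its macrophages from 271 to 146. Of the shared barcodes kept there, 642 of 756 lay in tested classes. The counts were 79 of 770 in high-fibre library 1, 95 of 768 in high-fibre library 2 and 48 of 473 in control-diet library 1. Results are also given without the shared barcodes. Each library held cells of both sexes: male cells, by Y-linked and Xist UMIs, were 64.3% and 39.4% of the sexed cells in the high-fibre libraries and 25.6% and 43.2% in the control-diet libraries. Clusters of cells were named by their markers as fibroblast-like (6032 cells), endothelial-like (6445), macrophage-like (3062), pericyte-like (1087), endocardial-like (495), smooth-muscle-like (258), B-cell-like (1057) and T-cell-like (504), and are called by the type name alone from here on. The defining markers were present in each: Dcn stood at 16906 to 19953 CPM (a gene's UMIs per 1000000 UMIs of the class) in fibroblasts, Cdh5 at 1184 to 1334 in endothelial cells, Npr3 at 1406 to 1664 in endocardial cells, C1qa at 6160 to 6561 in macrophages, Kcnj8 at 3081 to 3997 in pericytes and Myh11 at 2720 to 3301 in smooth muscle cells. The endocardial class also carried Dcn at 3411 to 3893 CPM, while Col1a1, a marker that fibroblasts had at 1346 to 1766 CPM, stood there at 13.6 to 32.5. In the sentences that follow, 4 values in a row are those of high-fibre library 1, high-fibre library 2, control-diet library 1 and control-diet library 2, and levels are CPM of the UMIs summed over a class. Levels of different genes are not compared with each other, and the order of classes is a description without a test.

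Igf1, the ligand that signals through Igf1r, came mainly from fibroblasts and macrophages among the kept cells. Fibroblasts held 69.7% of all Igf1 UMIs of the kept cells and macrophages 25.0%, while they made up 26.8% and 13.6% of the cells. These shares reflect depth as well as level: fibroblasts had a median of 12024 to 16340 UMIs per cell and endothelial cells 4515 to 6075. Cardiomyocyte-like cells numbered only 20, so the shares say nothing on heart muscle cells. Its level in fibroblasts was 413, 426, 338 and 432 CPM (402 ± 43.7, mean ± SD over 4 libraries). In macrophages it was 268, 325, 357 and 353.5 CPM. These ranges overlapped, and fibroblasts were above macrophages in 3 of 4 libraries. Both classes stood clear of pericytes, whose level was 46.3 to 103 CPM, and of endocardial (21.8 to 95.4) and endothelial cells (19.2 to 33.5). B cells, smooth muscle cells and T cells stayed at or under 8.56 CPM in every library. After each cell was thinned to 2000 UMIs, an average of 47.6% of fibroblasts and 40.3% of macrophages held an Igf1 UMI, against 0.80% of B cells. Without thinning the shares were 87.4%, 77.9% and 0.94%, at median depths of 12024 to 16340, 9727 to 13398 and 2845 to 4454 UMIs per cell.

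Within both main sources Igf1 was uneven. The fibroblasts fell into 4 clusters, each called here by its 3 leading genes: Cilp, Col8a1 and Ltbp2 (2288 cells), Inmt, Cxcl14 and Mmp3 (2279), Efhd1, Cd248 and Efemp1 (1265), and Wif1, 1500015O10Rik and Dkk3 (200). Igf1 stood at 367 to 482 CPM in the Cilp cluster and at 388 to 475 in the Inmt cluster, at 224 to 269 in the Efhd1 cluster, and at 590 to 1007 in the Wif1 cluster. The Efhd1 cluster was the lowest and the Wif1 cluster the highest in every library. Among the larger pair of macrophage clusters, the one led by Folr2, Fcna and Wfdc17 held 371, 422, 477 and 468 CPM. The cluster led by the class II genes H2-Eb1, H2-Aa and H2-Ab1 held 212, 241, 281 and 271 CPM, lower in all 4 libraries. Igf1 also reached 73.0 to 123 CPM in 1 endothelial cluster, against 3.48 to 32.5 CPM in the other 3 endothelial clusters. That cluster was led by the interferon-inducible genes Ifi44 and Iigp1 with AU021092. Lhx6, Samd5 and Col13a1 were also among its leading genes, and its cells were not split further. In the endocardial class the 10% of cells richest in it held 98.3% of its Igf1 UMIs, with up to 81 UMIs in a single cell, so its level there rests on few cells.

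**Figure D1:**
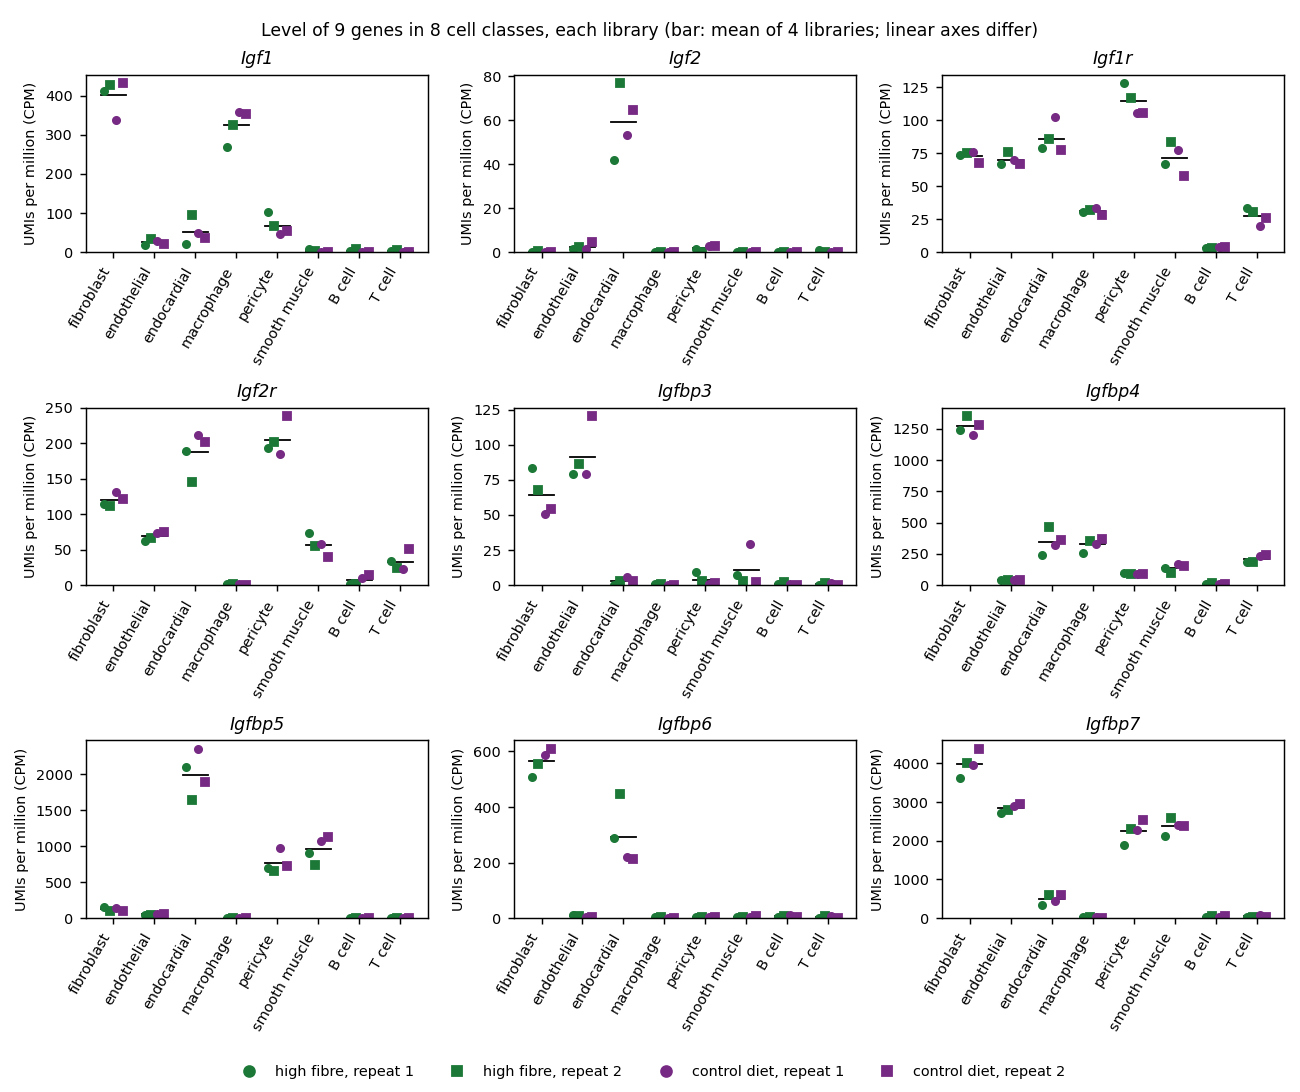
Level of 9 of the 10 genes in the 8 cell classes, as CPM of summed UMIs on linear axes that differ between panels; each point is 1 library and each bar the mean of 4 libraries. Igf2 is seen in the endocardial class, Igf1 in fibroblasts and macrophages, and Igfbp4, Igfbp6 and Igfbp7 are highest in fibroblasts, with Igfbp6 between 510 and 609 CPM there; Igfbp2 had 2 UMIs in all and is not drawn.

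Igf2, the ligand of fetal growth, was read in a single class. Its level in endocardial cells was 42.1, 77.0, 53.3 and 64.9 CPM (59.3 ± 15, SD, n = 4 libraries). Every other class tested stayed at or under 4.71 CPM in every library. The endocardial class was 2.20% of the cells and held 67.3% of the 394 Igf2 UMIs. An average of 10.0% of endocardial cells held an Igf2 UMI after thinning to 2000 UMIs and 26.2% without thinning, where endothelial cells had 1.49%. H19, the imprinted RNA gene that lies 72622 bases from Igf2 on chromosome 7, was found in the same class, at 850, 834, 1220 and 786 CPM, and at or under 4.09 CPM in each library of the other classes tested. The counts do not tell the parental alleles apart. The antisense transcript Igf2os, which overlaps Igf2 (chr7:142650766-142666816, minus strand), had 12 endocardial UMIs against 265 of Igf2.

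Igf1r, the signalling receptor, was spread more evenly than either ligand. Pericytes held 129, 117, 106 and 106 CPM, and endocardial cells 78.8, 85.8, 102 and 77.5. Pericytes were above endocardial cells in 4 of 4 libraries and the ranges did not overlap. Fibroblasts (67.8 to 76.3 CPM), smooth muscle cells (57.6 to 83.9) and endothelial cells (66.9 to 75.8) could not be ordered beyond their spread. Macrophages (28.4 to 33.9 CPM) and T cells (19.8 to 33.6) followed and overlapped. B cells, at 3.19 to 3.64 CPM, were the lowest class in every library. Across the fibroblast clusters led by Cilp, Inmt and Efhd1 the receptor varied little, between 60.5 and 86.8 CPM in all their libraries.

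Igf2r, the clearance receptor, had its highest levels in the same pair of classes and was near zero in macrophages. Pericytes held 194, 201, 185 and 238 CPM, and endocardial cells 189, 146, 211 and 202. These overlapped, and fibroblasts followed below both at 111 to 132 CPM. Endothelial cells held 61.7 to 75.2 CPM and smooth muscle cells 39.3 to 74.2. In macrophages the level lay between 0.240 and 1.51 CPM, from 42 UMIs in 3062 cells. B cells held 1.27 to 14.6 CPM, and an average of 1.07% of macrophages and 2.80% of B cells held a UMI without thinning. The antisense RNA Airn lies over Igf2r (chr17:12682406-12769664, minus strand). Its order of classes was like that of Igf2r, with 152 to 192 CPM in pericytes, 126 to 165 in endocardial cells, 48.3 to 63.8 in fibroblasts, 37.3 to 51.8 in endothelial cells and 0.593 to 1.05 in macrophages. Whether the counting used strand is not given in the sources used here, so reads from Igf2r and Airn may not be told apart where the genes overlap.

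Among the binding proteins, Igfbp2 was close to absent while its neighbour Igfbp5 was abundant. Igfbp2 gave 2 UMIs in 22514 kept cells, 1 in a pericyte and 1 in a mesothelial cell. On chromosome 1 Igfbp2 (chr1:72824503-72852474, plus strand) and Igfbp5 (chr1:72857932-72874884, minus strand) face each other tail to tail, 5457 bases apart and with no annotated gene between them. A second such pair lies on chromosome 11, where Igfbp1 and Igfbp3 (chr11:7206086-7213923, minus strand) end 3539 bases apart, and Igfbp1 gave 0 UMIs, a count that allows up to 3. The promoters of both pairs are shown because each pair holds 1 gene with many UMIs in these cells and 1 with hardly any. Each runs from 250 bases before to 50 bases after the RefSeq start (build GRCm38.p6), read 5′ to 3′ on the gene's own strand: chr1:72824230-72824529 (plus) for Igfbp2, chr1:72874816-72875115 (minus) for Igfbp5, chr11:7197537-7197836 (plus) for Igfbp1 and chr11:7213874-7214173 (minus) for Igfbp3.
Igfbp2: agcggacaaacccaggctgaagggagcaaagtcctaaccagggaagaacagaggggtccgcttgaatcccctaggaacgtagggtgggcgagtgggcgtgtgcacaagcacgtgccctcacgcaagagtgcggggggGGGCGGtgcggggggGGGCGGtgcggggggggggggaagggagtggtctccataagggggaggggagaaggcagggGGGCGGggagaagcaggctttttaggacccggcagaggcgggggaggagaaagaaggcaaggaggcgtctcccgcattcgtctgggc
Igfbp5: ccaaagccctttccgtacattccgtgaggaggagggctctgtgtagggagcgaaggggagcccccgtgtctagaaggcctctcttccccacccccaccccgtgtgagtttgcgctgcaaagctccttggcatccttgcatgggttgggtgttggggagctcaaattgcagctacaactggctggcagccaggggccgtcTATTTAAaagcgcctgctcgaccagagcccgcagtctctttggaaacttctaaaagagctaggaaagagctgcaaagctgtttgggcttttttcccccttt
Igfbp1: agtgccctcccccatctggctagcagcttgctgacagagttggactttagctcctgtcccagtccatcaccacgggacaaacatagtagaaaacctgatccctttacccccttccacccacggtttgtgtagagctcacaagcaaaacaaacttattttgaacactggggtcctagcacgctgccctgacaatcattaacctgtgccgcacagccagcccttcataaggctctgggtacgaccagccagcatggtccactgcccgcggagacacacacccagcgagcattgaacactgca
Igfbp3: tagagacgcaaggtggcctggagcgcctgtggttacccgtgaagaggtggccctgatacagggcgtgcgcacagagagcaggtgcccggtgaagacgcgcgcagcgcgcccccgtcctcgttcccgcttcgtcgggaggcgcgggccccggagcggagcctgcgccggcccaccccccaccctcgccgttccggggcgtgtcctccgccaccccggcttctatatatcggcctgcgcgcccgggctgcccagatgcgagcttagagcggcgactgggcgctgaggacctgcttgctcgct
Capitals mark matches to the motifs searched on both strands. The Igfbp2 window shown held GGGCGG at 3 places, 113, 98 and 37 bases before its start. Of the 32851 RefSeq promoters of this length, 35.66% hold that motif. A second RefSeq start of Igfbp2, not shown, has the window chr1:72825137-72825436, with 0 matches to GGGCGG and 14 CpG dinucleotides. Igfbp5 held TATTTAA 51 bases before its start, a motif that was chosen after this sequence had been seen and lies in 4.508% of promoters. The motif TATAAA, found in 13.62% of promoters, was in none of the 4 windows, and Igfbp1 and Igfbp3 matched none of the motifs named here. The Igfbp3 window also holds the letters tatatat, which were not searched as a motif and are not marked. The Igfbp3 window holds 37 CpG dinucleotides, more than 94.42% of promoters, against 18 for Igfbp2, 10 for Igfbp5 and 8 for Igfbp1. These matches describe the letters and say nothing on binding.

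Igfbp3, the main carrier of the ligands in blood, was read in endothelial cells and fibroblasts. Endothelial cells held 79.5, 86.3, 79.3 and 120 CPM and fibroblasts 83.6, 67.5, 50.7 and 54.5, and the ranges overlapped. Every other class tested was lower than both, with the highest library at 29.4 CPM in smooth muscle cells. Within fibroblasts the gene was concentrated in few cells: the richest 10% held 98.1% of its UMIs. The Inmt cluster held 143, 171, 168 and 176 CPM and the Wif1 cluster 254, 206, 226 and 90.2. The Cilp cluster stayed at 5.96 to 7.75 CPM and the Efhd1 cluster at 0.945 to 2.83. Among endothelial cells the cluster led by the arterial genes Rbp7, Sema3g and Hey1 was highest in every library, at 147 to 210 CPM, against 32.6 to 106 CPM in the other 3 clusters.

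Igfbp4, which is cleaved by the protease Pappa to free Igf1, was highest in fibroblasts. Fibroblasts held 1244, 1354, 1203 and 1282 CPM (1270.5 ± 64.3, SD, n = 4 libraries), clear of every other class. Endocardial cells (245 to 466 CPM) and macrophages (261 to 366) overlapped, and T cells (186 to 242), smooth muscle cells (98.4 to 173) and pericytes (85.7 to 97.9) followed without overlap. Endothelial cells held 42.5 to 45.5 CPM and B cells 9.56 to 20.3. In macrophages Igfbp4 followed the same clusters as Igf1, with 381 to 493 CPM in the Folr2 cluster and 184 to 256 in the class II cluster. Almost every fibroblast held an Igfbp4 UMI: 99.0% without thinning and 84.3% at 2000 UMIs.

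Igfbp5, which binds matrix as well as the ligands, marked the endocardium and the mural cells. Endocardial cells held 2099, 1642, 2353 and 1889 CPM (1996 ± 303, SD, n = 4 libraries). Smooth muscle cells held 908, 739, 1070.3 and 1123 CPM and pericytes 695, 649, 977 and 724. The endocardial class was above both in every library, and smooth muscle cells were above pericytes in 4 of 4 libraries although the ranges overlapped. Fibroblasts held 99.9 to 155 CPM, from few cells: the richest 10% of them held 91.1% of the Igfbp5 UMIs. The Wif1 cluster was the source with the highest level, at 1180, 1049, 672 and 60.1 CPM, the last from 7 cells. Endothelial cells as a class held 42.1 to 59.5 CPM, but the Ifi44 cluster held 321 to 421 and the other 3 stayed at or under 22.8 in every library. Macrophages held 0.961 to 4.84 CPM. When endothelial cells were chosen one by one by Pecam1 and Cdh5 UMIs in place of clusters, the mean level rose from 51.1 to 225 CPM, and that choice took in 121 cells of the lymphatic and 62 of the endocardial class.

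Igfbp6, which prefers Igf2 to Igf1, was read in fibroblasts and endocardial cells. Fibroblasts held 510, 554, 587 and 609 CPM and endocardial cells 287, 448, 220 and 211. Fibroblasts were higher in 4 of 4 libraries, and every other class tested stayed at or under 9.93 CPM. The fibroblast clusters differed: the Efhd1 cluster held 931 to 966 CPM, the Cilp cluster 578 to 704, the Inmt cluster 235 to 283 and the Wif1 cluster 2.97 to 7.81. The Wif1 cluster, with the highest Igf1, Igfbp3 and Igfbp5 levels of the 4 in pooled UMIs, was thus the lowest for Igfbp6 in every library.

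Igfbp7, the weak ligand binder of vessel walls, was the most widespread. Fibroblasts held 3627, 4015, 3955 and 4377 CPM, and endothelial cells 2719, 2808, 2890 and 2958. Smooth muscle cells (2124 to 2584 CPM) and pericytes (1880 to 2531) overlapped, and endocardial cells were lower at 351 to 609. Macrophages were the lowest class in every library, at 16.8 to 28.5 CPM, under the 35.1 to 53.5 of B cells. After thinning to 2000 UMIs an average of 98.2% of fibroblasts, 97.7% of smooth muscle cells, 94.5% of pericytes and 93.9% of endothelial cells held an Igfbp7 UMI, against 6.22% of B cells and 4.37% of macrophages. Igfbp7 (chr5:77349240-77408041, minus strand) overlaps Polr2b and the antisense gene Gm34648 on the other strand, and the same limit on strand holds as for Igf2r.

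**Figure D2:**
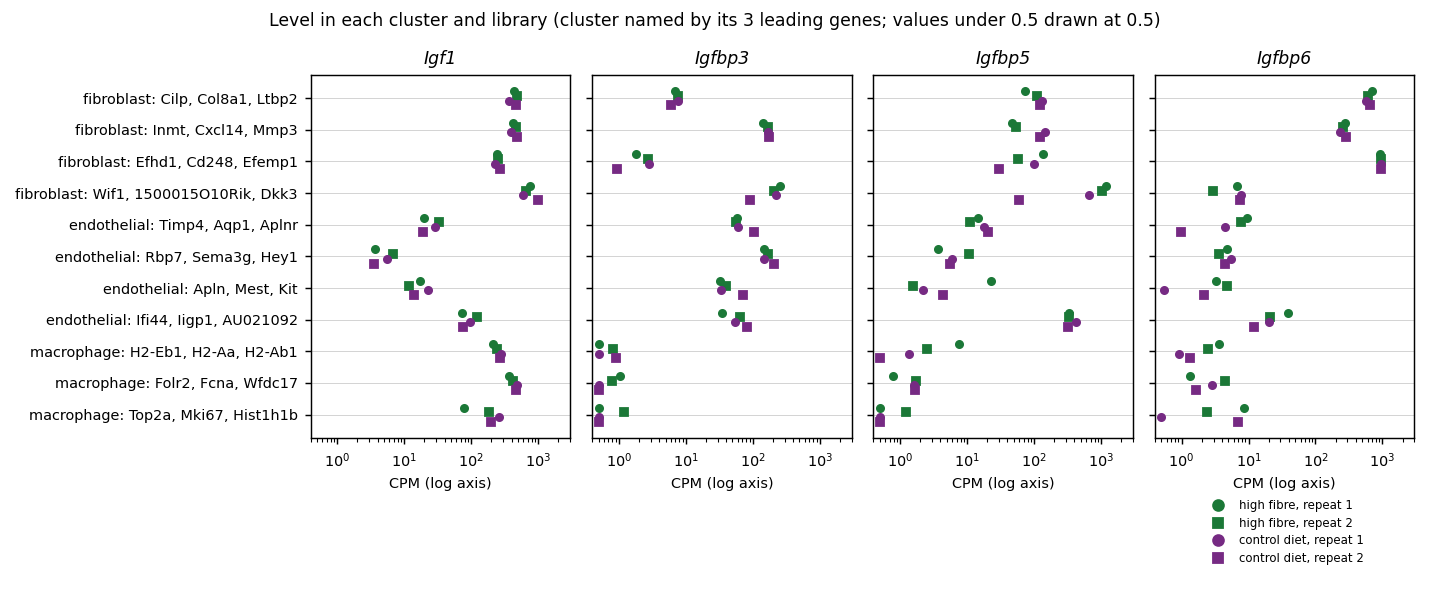
Level of Igf1, Igfbp3, Igfbp5 and Igfbp6 in each cluster of the fibroblast, endothelial and macrophage classes, as CPM on a log axis with values under 0.5 drawn at 0.5; each point is 1 library. Igfbp3 lies near 7 CPM in the Cilp cluster and above 140 CPM in the Inmt cluster, and Igfbp5 stands out in the Wif1 cluster and in the Ifi44 endothelial cluster.

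The genes whose pattern over classes was most like that of each member were found over 32 profiles, 8 classes in each of 4 libraries, among 5967 genes. The profiles of a library share depth and cells, so the correlations describe these libraries only and carry no test. The first in each case was Colec12 for Igf1 (Pearson r = 0.92), the endocardial marker Npr3 for Igf2 (0.95), Itgb1 for Igf1r (0.95), Airn for Igf2r (0.93), Vwa1 for Igfbp3 (0.92), Sulf2 for Igfbp4 (0.87), Cpe for Igfbp5 (0.97), Ackr4 for Igfbp6 (0.96) and Sparc for Igfbp7 (0.99).

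The diet comparison asked whether offspring of high-fibre dams differed from offspring of control-diet dams in these genes within a class. No member passed the test in any of the 8 classes by edgeR's quasi-likelihood test with Benjamini-Hochberg adjustment over all genes of a class, and none by DESeq2 or limma-voom. Log2 fold changes below are high fibre over control diet with their standard error, from 2 libraries against 2, and the CPM values beside them are scaled by the normalization factors of that test. An exact permutation test of 2 against 2 libraries cannot go below p = 0.333 and is not given. Of all genes tested, 4 of 13264 (0.0302%) passed in fibroblasts, 17 of 11704 (0.145%) in endothelial cells, 0 of 11460 (0%) in macrophages, 5 of 9309 (0.0537%) in pericytes, 4 of 8900 (0.0449%) in endocardial cells and 2 of 5274 (0.0379%) in smooth muscle cells. For macrophages, 418 genes had an unadjusted p under 0.05, DESeq2 called 2 genes and limma-voom 0.

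In fibroblasts 8 of the 10 genes passed the filter on low counts, and 0 were called. An unadjusted p under 0.05 was reached by 1 of the 8 (6.65% of all genes tested), and the group libraries did not overlap for 3 of the 8 (35.7% of all genes). The median log2 fold change of the 8 was 0.07, and of all genes tested 0.0037. Igfbp3 was the member nearest to the threshold: its scaled levels were 84.8 and 67.5 CPM against 50.7 and 54.0. Both high-fibre libraries were above both control-diet libraries, with a log2 fold change of 0.54 ± 0.12 (SE, edgeR adjusted p = 0.202). With 1 library left out the difference was 0.37 (without high-fibre library 1) to 0.70 (without high-fibre library 2). In male cells alone it was 1.42 (adjusted p = 0.00899), and without the shared barcodes 0.67 (adjusted p = 0.507). It was 0.08 (adjusted p = 0.999) in the Cilp cluster alone. Of 16 alternatives to the main fit, 3 had an adjusted p under 0.05. Igf2r and Igfbp6 were lower in both high-fibre libraries, by log2 fold changes of -0.14 and -0.15 (adjusted p = 0.906 and 0.875). Igf1 (419, 426, 338 and 428 CPM; 0.14 ± 0.11, adjusted p = 0.956) and Igfbp5 (157, 105, 137 and 98.8 CPM; 0.14 ± 0.29, adjusted p = 0.973) overlapped between the groups.

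The share of the fibroblast clusters differed between the libraries beside the Igfbp3 values. The Inmt cluster, one of the pair with high Igfbp3, was 48.7%, 38.4%, 28.7% and 33.0% of the fibroblasts, and the Cilp cluster 27.8%, 38.6%, 43.9% and 46.0%. The Wif1 cluster, the other of the pair, was 6.65%, 2.42%, 1.95% and 1.22%. The part of these shares in the class value was not tested. Within the Inmt cluster alone Igfbp3 stood at 144, 172, 168 and 175 scaled CPM. These overlapped, with a log2 fold change of -0.12 ± 0.11 (edgeR adjusted p = 1.00). In the male cells of the cluster alone the difference was 0.89 (adjusted p = 0.00829), in its female cells -0.27 (adjusted p = 0.998), and without shared barcodes 0.17 (adjusted p = 1.00), with control-diet library 2 then at 95.4 CPM. When its cells were instead picked from all fibroblasts by their Inmt, Cxcl14 and Mmp3 UMIs, Igfbp3 stood at 128, 124, 92.5 and 83.7 CPM (0.50 ± 0.12, adjusted p = 0.135).

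The same split showed a difference in Igfbp5 that the whole class did not. This comparison was chosen after the data were seen. In the Inmt cluster Igfbp5 stood at 46.6 and 54.4 CPM in the high-fibre libraries and at 145 and 121 in the control-diet libraries, with no overlap. The log2 fold change was -1.41 ± 0.12 (edgeR adjusted p = 4.83e-06), and 22 of 11851 genes (0.186%) were called in this cluster. Adjusted over all 9 cluster fits and their 93453 tests together, p was 3.81e-05. Cells with at least 10 Igfbp5 UMIs numbered 10 of 798, 14 of 777, 35 of 514 and 11 of 190, and cells with any UMI were 13.5%, 12.9%, 23.9% and 24.2%. The cells with fewer than 10 Igfbp5 UMIs held 30.3, 26.3, 46.1 and 30.7 CPM, where high-fibre library 1 and control-diet library 2 were close. Leaving out 1 library at a time gave -1.26 to -1.53 with adjusted p between 1.79e-14 and 0.00201. It held in female cells (-0.81, adjusted p = 0.0346), in male cells (-1.82, 0.0059) and without shared barcodes (-1.82, 0.00522), where control-diet library 2 kept 81 of 190 cells. It was lost when the cells were picked by their Inmt, Cxcl14 and Mmp3 UMIs: 52.3, 51.6, 133 and 66.4 CPM, -0.99 ± 0.36, adjusted p = 0.844. Of all genes, 0.151% were called in the Cilp cluster and 0.117% in the Efhd1 cluster, with no member among them. In the Cilp cluster Igfbp5 stood at 74.5, 112, 129 and 120 CPM (-0.41 ± 0.21, adjusted p = 0.994) and in the Efhd1 cluster at 135, 58.4, 100.3 and 30.1 (0.41 ± 0.89, adjusted p = 1.00). The diet difference of the Inmt cluster minus that of the Cilp cluster was -0.95 ± 0.11 by limma on differences within a library (adjusted p = 0.00327, 3 of 11619 genes called, 0.0258%). The Efhd1 cluster gave 1.13 ± 1.13 against the Cilp cluster (adjusted p = 1.00, 0.0271% of genes called) and 2.08 ± 0.96 against the Inmt cluster (adjusted p = 0.955, 0% called).

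**Figure D3:**
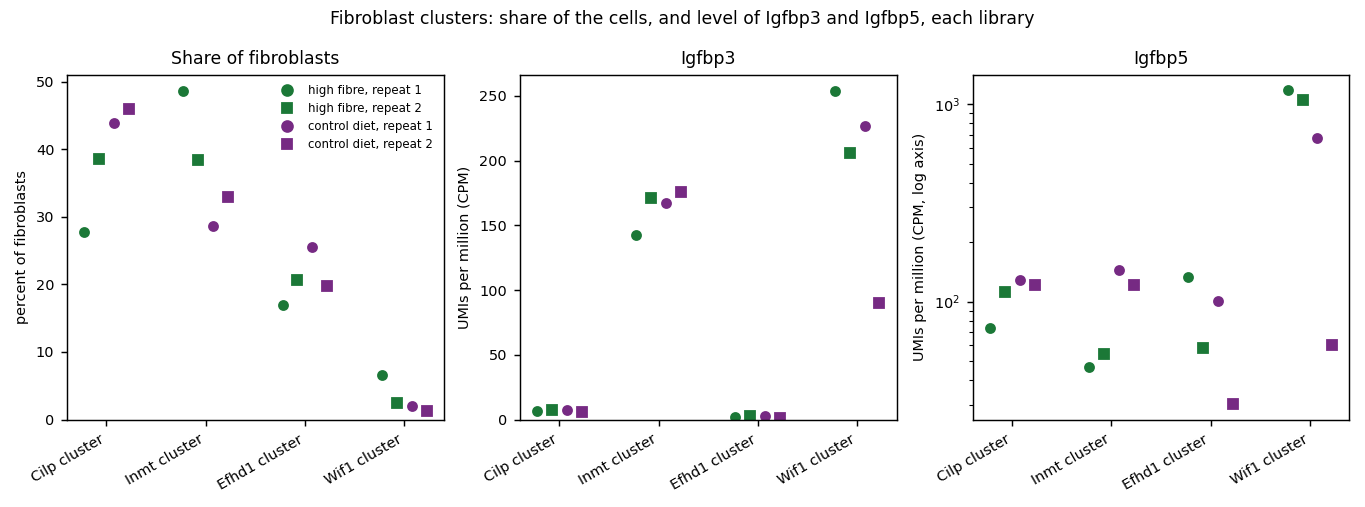
Share of each fibroblast cluster among the fibroblasts of a library (left, percent), and level of Igfbp3 (middle, CPM, linear axis) and Igfbp5 (right, CPM, log axis) in each cluster; each point is 1 library. The Inmt cluster is 38.4% and 48.7% of fibroblasts in the high-fibre libraries and 28.7% and 33.0% in the control-diet libraries, and its Igfbp5 level is lower in both high-fibre libraries.

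In endothelial cells 9 of the 10 genes passed the filter and 0 were called. An unadjusted p under 0.05 was reached by 3 of the 9 (5.48% of all genes), the groups did not overlap for 5 of the 9 (34.4% of all genes), and the median log2 fold change was -0.09, against 0.0003 for all genes. Igfbp5 stood at 43.1 and 46.1 CPM against 60.3 and 55.3. Both high-fibre libraries were lower (-0.38 ± 0.11, adjusted p = 0.397), but the sign turned to 0.42 ± 0.41 when cells were chosen one by one. The Ifi44 cluster, the one with most Igfbp5, was 8.89%, 10.1%, 10.8% and 13.5% of the endothelial cells and itself held 332, 329, 421 and 321 CPM, and the part of its share was not tested. Igfbp6, which is near the level of B cells here, stood at 10.1 and 7.61 CPM against 5.95 and 3.69 (0.84 ± 0.26, adjusted p = 0.541). Fibroblast markers, summed over their list of 6 with none at 0, stood at 121 and 159 CPM against 105 and 60.4 in the same cells, and their part in the Igfbp6 value was not tested. Igf2r was lower in both high-fibre libraries (63.0 and 65.5 against 74.8 and 74.5 CPM, -0.21 ± 0.10, adjusted p = 0.901). Igfbp3 overlapped (81.2, 84.5, 80.4 and 119 CPM, -0.27 ± 0.18, adjusted p = 0.967). Without control-diet library 1, Igfbp3 (-0.53, adjusted p = 0.011) and Igfbp6 (1.24, adjusted p = 0.0167) passed the threshold. Without control-diet library 2 they were 0.04 (adjusted p = 1.00) and 0.55 (adjusted p = 0.814), and in male cells alone Igfbp6 turned to -0.08 (adjusted p = 0.997).

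In macrophages 7 of the 10 genes passed the filter. An unadjusted p under 0.05 was reached by 3 of the 7 (3.65% of all genes), and the groups did not overlap for 4 of the 7 (32.2% of all genes). Igf1 stood at 282 and 313 CPM against 362 and 346. Both high-fibre libraries were lower (-0.25 ± 0.10, edgeR adjusted p = 1.00). The larger pair of macrophage clusters had the same order: 221 and 235 against 284 and 265 CPM in the class II cluster, and 387 and 414 against 487 and 456 in the Folr2 cluster. In these clusters 1 of 10575 genes (0.00946%) and 0 of 10004 genes (0%) were called by edgeR, with no member among them. The third cluster, of 82 cells led by Top2a, Mki67 and Hist1h1b, held 76.7, 181, 260 and 196 CPM of Igf1 without scaling and was not tested. Without shared barcodes the class difference was -0.18, and in male cells alone -0.06. Igf1r did not separate the groups (32.0, 30.6, 34.3 and 27.8 CPM). Igf2r, Igfbp5 and Igfbp6 were higher in both high-fibre libraries, but all lay at or under 5.09 CPM.

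In pericytes 6 genes passed the filter. An unadjusted p under 0.05 was reached by 2 of the 6 (5.42% of all genes), and the groups did not overlap for 4 of the 6 (34.4% of all genes). Igf1 stood at 107 and 66.5 CPM against 46.5 and 55.3. Both high-fibre libraries were higher (0.78 ± 0.22, adjusted p = 0.615). Macrophage markers, summed over their list of 6, stood at 68.1 and 98.2 CPM against 34.1 and 38.7 in the same pericytes. Fibroblast markers, also summed over a list of 6, stood at 733 and 777 CPM against 907 and 727. The part of either in the Igf1 value was not tested. Igfbp5 stood at 719 and 653 CPM against 980.1 and 726, lower in both high-fibre libraries (-0.32 ± 0.13, adjusted p = 0.898). Without control-diet library 2 the Igfbp5 difference was -0.52 with an adjusted p of 0.0431, and without control-diet library 1 it was -0.08 (adjusted p = 0.961).

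In endocardial cells 8 genes passed the filter. An unadjusted p under 0.05 was reached by 1 of the 8 (4.31% of all genes), and the groups did not overlap for 2 of the 8 (33.3% of all genes). Igfbp6 stood at 296 and 458 CPM against 222 and 210. Both high-fibre libraries were higher (0.81 ± 0.17, adjusted p = 0.114). The call depended on the setting: the adjusted p was 9.88e-05 with a replicate block and 0.0179 without high-fibre library 1, but 0.977 without high-fibre library 2 (0.46) and 0.998 without shared barcodes (0.50). With cells chosen one by one by Npr3 the difference was 0.28. The richest 10% of endocardial cells held 81.7% of the class's Igfbp6 UMIs. Igf2 (43.5, 78.6, 53.7 and 64.6 CPM, 0.13 ± 0.24) and Igfbp5 (2169, 1677, 2371 and 1879 CPM, -0.15 ± 0.14) overlapped between the groups, each with an adjusted p of 0.998.

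In smooth muscle cells 5 genes passed the filter, and the same 2 of the 5 had an unadjusted p under 0.05 (3.13% of all genes) and groups that did not overlap (30.1% of all genes). Igfbp5 stood at 986 and 779 CPM against 1163 and 1193 (-0.43 ± 0.17). Igfbp4 stood at 146 and 104 CPM against 188 and 164 (-0.55 ± 0.25). Both were lower in both high-fibre libraries, with an adjusted p of 1.00 each, and without shared barcodes the differences were -0.16 and -0.29. In B cells 3 genes passed the filter and in T cells 4, again with 0 called, against 2 of 7335 genes (0.0273%) and 1 of 6242 (0.016%). An unadjusted p under 0.05 was reached by 1 of the 3 in B cells (3.9% of all genes) and 1 of the 4 in T cells (3.97%), and the groups did not overlap for 1 (31.9%) and 2 (33.5%).

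**Figure D4:**
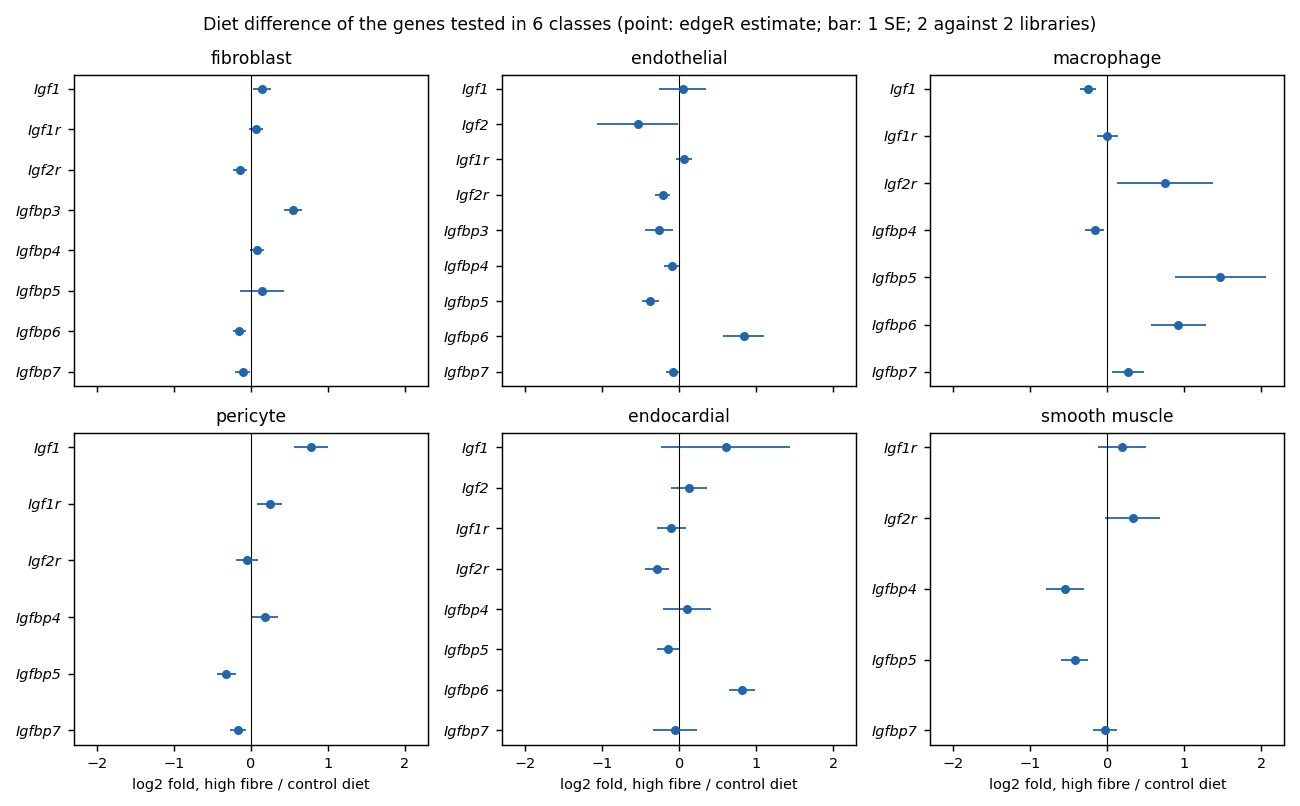
Log2 fold change of high fibre over control diet for the genes that passed the filter in 6 classes; points are edgeR estimates and bars 1 standard error, from 2 libraries against 2. Igfbp3 in fibroblasts lies at 0.54 and Igfbp6 in endocardial cells at 0.81, and no point drawn passed an adjusted p of 0.05.

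Diet differences were also compared between pairs of the 4 main classes by limma on differences within a library. Of the members, Igfbp6 in fibroblasts minus macrophages passed (-0.99 ± 0.13, adjusted p = 0.0399), where 5 of 10715 genes did (0.0467%). No member passed in the other 5 pairs, where the shares of genes called were 0.0623% for fibroblasts minus endothelial cells, 0% for fibroblasts minus pericytes, 0.0579% for endothelial cells minus macrophages, 0.0112% for endothelial cells minus pericytes and 0.0347% for macrophages minus pericytes. The macrophage level behind it was 3.01 and 3.27 CPM against 1.67 and 1.65, under the 3.64 to 9.93 CPM of B cells, and leaving out any 1 library raised the adjusted p to between 0.059 and 0.225. For Igfbp3, fibroblasts minus endothelial cells gave 0.77 ± 0.22 (adjusted p = 0.51). Over its 6 alternatives the value was 0.53 to 1.01, and the adjusted p was 0.000236 with a replicate block and 0.163 to 0.966 with 1 library left out.

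Male and female cells of the same libraries were compared within classes, with the library as a block, a comparison added after the data were seen. Igfbp3 was lower in the male cells of endothelium: female cells held 117, 100.4, 82.9 and 136 CPM and male cells 69.8, 63.4, 73.5 and 109. Male cells were lower in 4 of 4 libraries (-0.48 ± 0.09, edgeR adjusted p = 0.00508, 21 of 10361 genes called, 0.203%), and leaving out 1 library gave adjusted p of 0.00959 to 0.052, the highest without high-fibre library 2. In fibroblasts Igfbp3 was also lower in male cells in 4 of 4 libraries, at 66.2, 62.6, 18.99 and 30.5 CPM against 119, 70.7, 65.7 and 68.1, without passing the test (-0.91 ± 0.32, adjusted p = 0.454; 1.26% of genes called). Igf1 had opposite signs in its 2 sources, a difference that was not tested. In macrophages male cells held 277, 295, 271 and 324 CPM and female cells 316, 335, 394 and 382, lower in 4 of 4 (-0.29 ± 0.07, adjusted p = 0.104; 0.204% of genes called). In fibroblasts male cells held 425, 439, 406 and 466 CPM and female cells 416, 422, 303 and 397, higher in 4 of 4 (0.18 ± 0.06, adjusted p = 0.251). Within the Inmt cluster the male cells were higher in Igf1 in 4 of 4 libraries as well (365, 456, 325 and 439 CPM in female and 439, 475, 485 and 506 in male cells), by 0.28 ± 0.07 with an adjusted p of 0.0425, where 2.93% of genes were called. Leaving out 1 library moved that p to between 0.0156 and 0.369, and the call was lost without high-fibre library 1 and without either control-diet library. The share of male cells differed between the libraries, highest in high-fibre library 1 and lowest in control-diet library 1, and its part in the diet differences above was not tested beyond the values given for male and female cells.

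**Figure D5:**
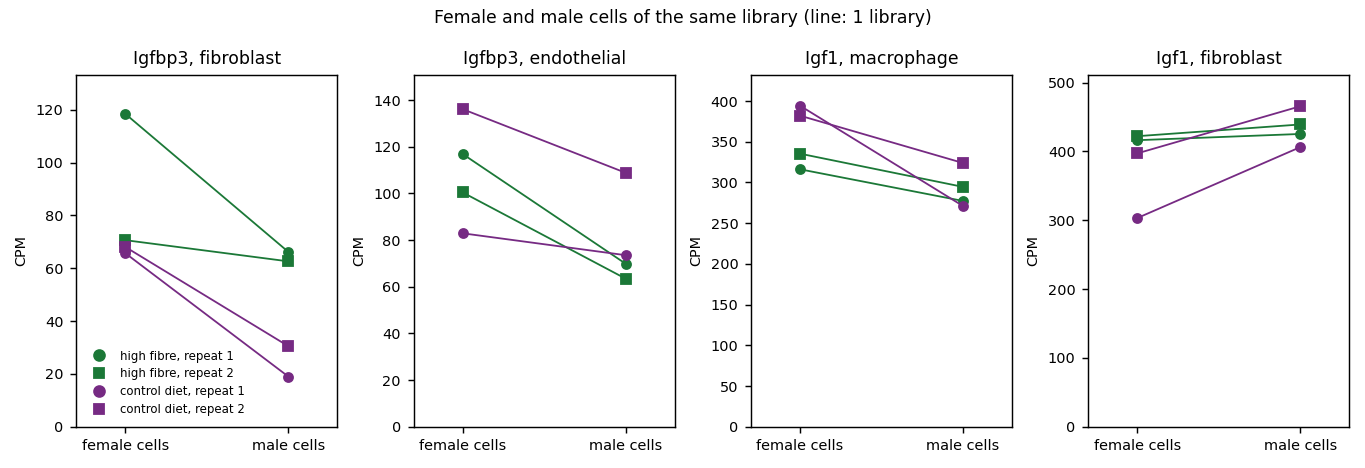
CPM of Igfbp3 in fibroblasts and endothelial cells and of Igf1 in macrophages and fibroblasts, in female and male cells of the same library; each line is 1 library and the axes start at 0. The lines fall for Igfbp3 in both classes and for Igf1 in macrophages in 4 of 4 libraries, and rise for Igf1 in fibroblasts.

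The rest of the pathway was read in 71 further genes in 6 lists, and 0 of them were called in any of the 8 classes, where the shares of all genes called were those given above. Those printed here, apart from Stc1 in fibroblasts, were chosen for an unadjusted p under 0.05, after their values were seen. Outside fibroblasts not every gene with such a p is printed. In fibroblasts the list of binding protein proteases and stanniocalcins, which cut the binding proteins or block that cutting, had 9 of 10 genes tested, 0 called in either direction, 8 of 9 estimates above 0 and a median log2 fold change of 0.33. Its groups did not overlap for 3 genes that were higher and 1 that was lower in high fibre. Of all 13264 genes tested in fibroblasts, the groups did not overlap for 35.7%, and 6.65% had an unadjusted p under 0.05. Estimates above 0 numbered 6764 of those 13264 genes, with a median of 0.0037. These values are the background for every fibroblast list here. In the protease list the gene with the largest estimate was Stc1, a stanniocalcin, at 0.501 and 0.470 CPM against 0.409 and 0.104 (0.62 ± 0.62, adjusted p = 0.961). Of the 3 with an unadjusted p under 0.05, Stc2, its relative, stood at 33.4 and 30.2 CPM against 22.7 and 27.8 (0.35 ± 0.12, adjusted p = 0.567), and Adamts1, a secreted metalloprotease, at 206 and 174 CPM against 156 and 147 (0.33 ± 0.10, adjusted p = 0.477). The third, Htra3, a secreted protease, stood at 1204 and 1245 CPM against 1425 and 1390, lower in both high-fibre libraries (-0.20 ± 0.09, adjusted p = 0.726). The receptor adaptors and modulators had 10 of 12 tested, 0 called, 7 estimates above 0 and a median of 0.05, with Irs1, the docking protein of the receptor, at 16.8 and 21.2 CPM against 22.6 and 24.6 (-0.30 ± 0.13, adjusted p = 0.719). The growth hormone axis had 8 of 8 tested, 0 called, 5 estimates above 0 and a median of 0.05. Its Socs2, a feedback inhibitor of growth hormone signalling, stood at 317 and 268 CPM against 242 and 229 (0.31 ± 0.10, adjusted p = 0.516).

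Of the PI3K, AKT and mTOR list 16 of 16 genes were tested in fibroblasts, with 0 called, 5 estimates above 0 and a median of -0.05, and Pik3r1, the regulatory subunit of PI3K, stood at 93.4 and 88.6 CPM against 77.4 and 67.2 (0.33 ± 0.10, adjusted p = 0.447). Of the FoxO factors and target genes 14 of 14 were tested, with 0 called, 9 estimates above 0 and a median of 0.07, and the stress gene Gadd45a stood at 44.4 and 42.9 CPM against 68.9 and 55.1 (-0.52 ± 0.11, adjusted p = 0.22). The list of other insulin-like ligands, binding proteins and mRNA-binding proteins had 5 of 11 tested, 0 called and a median of 0.08. In pericytes Stc1, a stanniocalcin that blocks the protease Pappa, stood at 6.34 and 4.80 CPM against 10.5 and 20.9 (-1.38 ± 0.51, adjusted p = 0.886). In this class 2 genes of the protease list, Stc1 among them, had an unadjusted p under 0.05 by edgeR. So had 1 each of the PI3K and FoxO lists (5.42% of all genes). In endothelial cells such a p was reached by 1 gene each of the lists of other ligands, proteases, growth hormone axis and FoxO (5.48% of all genes). In macrophages Pik3ip1, an inhibitor of PI3K, stood at 2.60 and 2.54 CPM against 4.48 and 4.47 (-0.80 ± 0.30, adjusted p = 1.00).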

How the data were processed

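The authors deposited 1 matrix of unnormalized UMI counts per gene and barcode for each of the 4 libraries. Cell Ranger 3.1.0 and the mm10 genome are named in the submitters' processing notes, and whether counting used strand is not given in the sources used here. A barcode was kept from 500 UMIs and 250 genes upward, if no more than 20% of its UMIs were mitochondrial. Doublets were scored against simulated pairs, and the top 0.8% per 1000 barcodes of each library was removed. Cells were clustered on 2000 variable genes, without the genes of any list used here (30 principal components, 15 neighbours, Leiden resolution 1; leidenalg 0.10.2, scikit-learn 1.9.0, Python 3.11.15). The 27 clusters were named from their markers by a rule set after the clusters had been seen, and 4 clusters stayed unnamed.

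UMI counts were summed per class and library, and 8 classes, none with fewer than 20 cells in a library, entered the tests. The diet groups were compared with edgeR 4.0.16 (quasi-likelihood test, TMM factors, filterByExpr with a minimum count of 10, R 4.3.3), with Benjamini-Hochberg adjustment over all genes of a class and a threshold of 0.05. Every adjusted p in the text is from edgeR unless limma or another tool is named. Differences of the diet effect between classes or clusters were tested with limma 3.58.1 on log2 CPM differences within a library (prior count 2). Only the tests for differences were run on simulated counts, with changes larger than most estimates of the members. Cell filtering, doublet removal, clustering and naming were not part of that run. DESeq2 1.42.0, limma-voom and the other alternatives are described in the closing part.

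The 10 genes and the 6 pathway lists were chosen with earlier results of these data known. Pathway genes with values in the text, apart from Stc1 in fibroblasts, were chosen for an unadjusted edgeR p under 0.05 after their values were seen. Also named are the gene most like each member, the class markers and the leading genes of the clusters. No label states that libraries of equal repeat number belong together. Deviations of libraries with equal numbers correlated at 0.0164 (T cells) to 0.199 (macrophages) across the tested classes, and the correlation was positive in each class. Whether equal numbers pair the libraries was not tested further. Gene positions are from GENCODE vM21 (GRCm38), matched for 30934 of 31053 identifiers and 10 of 10 members, and promoters are from RefSeq (GRCm38.p6). The values of 1 gene of the pathway lists are not reported here.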

Additional observations from a re-analysis of the deposited data

Results flagged for a closer look

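A diet difference that itself differed between groups of cells was found for 3 members. For Igfbp6, the diet difference in fibroblasts minus that in macrophages was -0.99 (limma, adjusted p = 0.0399), with the macrophage libraries at 1.65 to 3.27 scaled CPM. That call was lost with any 1 library left out. For Igfbp5, the diet difference in the Inmt cluster of fibroblasts minus that in the Cilp cluster was -0.95 (limma, adjusted p = 0.00327), and the Inmt cluster was singled out after its values had been seen. With cells picked by their Inmt, Cxcl14 and Mmp3 UMIs, the Igfbp5 diet difference itself did not pass (-0.99, edgeR adjusted p = 0.844).

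For Igfbp3 in the Inmt cluster, the diet difference in male cells minus that in female cells was 1.15 (limma, adjusted p = 0.0105). This comparison of the sexes was not repeated with a library or the shared barcodes left out. Male cells held 118 and 141 CPM in the high-fibre libraries against 58.0 and 84.7 in the control-diet libraries, a log2 fold change of 0.89 by edgeR (adjusted p = 0.00829). Male cells with any Igfbp3 UMI were 16.3% and 15.02% against 14.1% and 21.3%, and those with at least 10 UMIs were 18 of 471 and 11 of 313 against 4 of 177 and 4 of 80. Female cells held 190 and 209 CPM against 237 and 245, a log2 fold change of -0.27 (adjusted p = 0.998). Groups of 2 libraries are too small for a search for single libraries far from the rest.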

How the results depend on the processing

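No alternative lost or reversed a called diet difference of a member in a class, since none was called. Of 740 values for 50 such differences, 728 stayed on the same side of the threshold, 12 passed it and 75 changed sign. Of 237 values for 40 diet differences compared between classes, 221 stayed on the same side, 12 passed the threshold, 4 lost it and 20 changed sign. The class with the highest level was the same for the 9 members other than Igfbp2, which had 2 UMIs, in the 4 alternatives that recompute levels, and 45 of 300 levels moved by more than the spread between libraries. Leaving out shared barcodes, the cluster fits and the comparisons of the sexes were chosen after seeing the data. Within the Inmt cluster, Igfbp3 turned from -0.12 to 0.89 in male cells alone, and the cause was not tested.

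The numbers of genes called moved widely. They were 4 in fibroblasts, 17 in endothelial cells, 0 in macrophages, 5 in pericytes, 4 in endocardial cells, 2 in smooth muscle cells, 2 in B cells and 1 in T cells. Without a filter on low counts they were, in that order, 281, 129, 55, 19, 37, 13, 12 and 25. With the replicate number as a block they were 13, 31, 20, 12, 60, 9, 16 and 15, although the numbers do not pair the libraries by any label. Under the block, endocardial Igfbp6 had an adjusted p of 9.88e-05, and no other diet difference of a member in a class passed. Leaving out 1 library gave 0 to 289 in fibroblasts, 13 to 158 in endothelial cells, 0 to 50 in macrophages, 0 to 30 in pericytes, 3 to 67 in endocardial cells, 2 to 63 in smooth muscle cells, 9 to 36 in B cells and 3 to 38 in T cells, where the lone library is assumed to vary like the others.

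DESeq2 called 42 genes in fibroblasts, 2 in macrophages, 1 each in pericytes, endocardial cells and B cells and 0 in smooth muscle cells, and limma-voom 3 in pericytes and 0 in smooth muscle and T cells. Cells chosen one by one gave 2 in fibroblasts, 7 in endothelial cells, 19 in pericytes, 23 in endocardial cells and 6 in smooth muscle cells. The largest cluster alone gave 18 in fibroblasts, 10 in endothelial cells and 1 in macrophages, and endothelial cells without the Apln cluster 11. Female cells gave 0 in fibroblasts, endocardial cells and B cells and 1 in macrophages and pericytes. Male cells gave 26 in fibroblasts, 5 in endothelial cells, 7 in endocardial cells and 1 in B cells. With doublets kept the counts were 1 in endothelial cells, 13 in endocardial cells, 4 in smooth muscle cells, 1 in B cells and 0 in T cells. A mitochondrial limit of 10% gave 2 in endocardial cells, 0 in smooth muscle cells, 1 in B cells and 2 in T cells. Without shared barcodes there were 8 in endothelial cells, 1 in macrophages, 8 in pericytes and 9 in endocardial cells. The cause of these shifts was not tested. Depth limits the smooth muscle class, with 258 cells, and every share of cells with a UMI.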

Other observations

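Several members were high in clusters too small to be tested. In the mesothelial-like cluster (37 cells), pooled levels were 7621 CPM for Igfbp5 and 5284 CPM for Igfbp6, both above every tested class, and 172 CPM for Igf1r. In the lymphatic-endothelial-like cluster (170 cells), Igfbp5 stood at 3889, 3192, 2279 and 1170 CPM and Igfbp4 at 616, 595, 654 and 549. H19 was at 39.3 CPM there when pooled, against 952 in the endocardial class.

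The Schwann-like cluster (185 cells) held Igfbp7 at 4305, 4227, 3956 and 3966 CPM, in the range of fibroblasts, and Igf1r at 162, 227, 212 and 131. The neutrophil-like cluster (155 cells) held Igf1r at 331, 430, 298 and 156 CPM, from 136 UMIs, above the 106 to 129 CPM of pericytes in every library. These are values of few cells, given in the order of the libraries used above and without a test.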
